A study of Mus musculus with 11 samples.

Results

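Genomic imprinting was examined in the epididymal white adipose tissue (eWAT) of obese mice through 47 imprinted genes chosen by name, of which 40 were analysed among the 15453 genes with a value in every mouse. Of the 40, 19 are known as paternally expressed and 21 as maternally expressed, the latter set holding 12 genes whose maternal bias is known only for some tissues. The paternal bias of Gab1 and Inpp5f is likewise known only in part. Calcr, Usp29, Magel2, Snrpn, Ascl2, Phlda2 and Rtl1 were not analysed here. The tissue came from 11 male C57BL/6 mice (C57BL/6J in the study's methods) aged 16 weeks, fed a high fat diet from week 8 to week 16. The 6 wildtype (WT) mice carried no targeted allele. The 5 Mest pKO mice (Mest+/-, paternal knockout) had inherited from their father an allele of Mest without exon 3, made with an EIIa-cre transgene that acts in the early embryo, so that the deletion was in every tissue and the maternal copy was intact. Both genotypes were offspring of WT mothers and fathers that carried the deleted allele on their own maternal chromosome. According to the study the WT mice of this set were fatter than the pKO mice, so genotype and adiposity cannot be told apart here. RNA was read by serial analysis of gene expression (SAGE), and levels are given as normalized tags, in which each library's tag counts were divided by its own size factor. Values with ± are means with the SD, over n = 6 for WT and n = 5 for pKO mice.

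An imprinted gene is transcribed mainly from the copy inherited from the mother or mainly from the copy inherited from the father, because the germ line leaves methylation marks on one of them. Most imprinted genes lie in domains that share a control region, in which a paternally expressed gene often overlaps a maternally expressed partner, as an antisense gene or as a gene inside the intron of a host. Many act on fetal growth and on the formation of fat: Mest, Peg3 and Plagl1 belong to a co-regulated network of imprinted genes, Dlk1 marks preadipocytes, and Gnas passes hormone signals on to lipolysis. In bulk tissue a lower level can come from fewer cells of a type or from less RNA per cell, and these cannot be told apart.

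SAGE reads 1 tag per polyadenylated transcript, next to the NlaIII site (CATG) nearest its 3′ end, so that levels of different genes can be compared with no correction for length. The tags do not tell the maternal from the paternal transcript in an inbred strain, nor isoforms that end alike. A tag of 27 bases was read from the GENCODE M21 transcripts with a RefSeq entry (GRCm38, the same assembly as mm10) for 36 of the 40 genes. It fell in the 3′ untranslated region in 32, in coding sequence in 2 and in a non-coding RNA in 2. The tags of the genes on which the results turn follow, with the NlaIII site in capitals. They are the tags that these transcripts predict, and which tags were counted for each gene in the values used here is not given. Those of Mest and Copg2 lie within each other's last exons on opposite strands and are separate sequences.

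Mest, chr6:30748145-30748171, plus strand: CATGtaagtgcggaatgaatgtccatt
Copg2, chr6:30747776-30747802, minus strand: CATGctaggcaggcacactaccactga
Plagl1, chr10:13129783-13129809, plus strand: CATGtgatgttgttccaatgtgagtta
Dcn, chr10:97517794-97517820, plus strand: CATGacttattatgcaagctgaatata
Gnas, chr2:174346479-174346505, plus strand: CATGatcaacaccgcaacctttccttt
Peg10, chr6:4760008-4760034, plus strand: CATGgatgacattctagtgaaggttag
Igf2, chr7:142650827-142650853, minus strand: CATGcattttctggcaaaatccaaagc

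All of these 7 tags lie in a 3′ untranslated region. The Mest tag serves all 3 RefSeq transcripts of the gene and lies in the last exon, 5925 bases beyond the end of the deleted exon 3 (30742141 to 30742220, 80 bases). It is outside the deleted part, so a level read from this tag does not check the deletion itself. The Gnas tag is common to 6 of 9 RefSeq transcripts of that complex locus, and the Igf2 tag also occurs in the overlapping gene model Gm49394, so that values read from them may join several transcripts.

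Libraries held 9659740 to 14825727 tags, and no pair agreed within sampling noise. Of the pKO mice, replicate 2 was the lowest of the 5 in 13 of the 30 imprinted genes whose mean reached 50 in either genotype. How often it was the lowest over all genes was not counted. By chi-square per degree of freedom, its library was nearer to WT replicate 2 (34.4) than to any pKO library (55.2 to 78.1). The library of pKO replicate 1 lay at 55.2 to 99.8 from the other pKO libraries. Replicate 1 of the pKO mice was the lowest of the 5 in 7 and the highest in 9 of the 30 genes. Adipocyte markers were abundant in every library (10 of 10 with a mean of at least 50, summed level 705608 to 1116858 in WT and 762779 to 1133284 in pKO mice). None of the 10 epididymis and testis markers was analysed here. Macrophage markers summed to 3542 to 5117 in WT and 3102 to 4213 in pKO mice, with 3 of the 7 abundant ones lower in pKO mice and 0 higher at an unadjusted p of at most 0.05. Mesothelial markers summed to 1167 to 1600 in WT and 1405 to 2705 in pKO mice, with 3 of the 5 abundant ones higher and 0 lower. No marker of either list was at 0 in all libraries, and the part of these cells in the differences given here was not tested. Brown fat markers were low, with 0 of 3 reaching a mean of 50. At an unadjusted p of at most 0.05, 1 of 6 endothelial markers and 1 of 10 adipocyte markers were higher and none were lower, and no lymphocyte or skeletal muscle marker was at it. For scale, 5.77% of the genes in the whole series that reached a mean of 50 were lower at that p, and 4.85% were higher. Whether the count of any marker list exceeded these shares was not tested.

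The imprinted genes covered a wide range of abundance. The top of the order was held by Dcn (decorin, a collagen-binding proteoglycan), Gnas (the stimulatory G protein alpha subunit) and Mest (a hydrolase-like protein of the endoplasmic reticulum), each with a mean over all mice above 10000 normalized tags. In WT mice their ranges overlapped, with 17960 to 25297 for Dcn, 17087 to 31905 for Gnas and 20756 to 27897 for Mest, so their order was not fixed beyond the spread. The other genes were grouped by the higher of their genotype means, not by the mean over all mice. Another 4 genes lay between 1000 and 10000 (Cd81, Blcap, Impact and Nnat), 15 between 200 and 1000, and 8 between 50 and 200. The remaining 10 were under 50 in both genotypes: Inpp5f, Kcnq1, Slc38a4, Osbpl5, H19, Dlk1, Rasgrf1, Zdbf2, Zim1 and Dio3. Several growth genes that are high in the fetus were among these low ones. H19, a non-coding RNA, had a WT mean of 10.2 ± 5.11, and Dlk1, the preadipocyte factor, had 8.28 ± 2.38. Zim1, a zinc finger gene, and Dio3, the deiodinase that inactivates thyroid hormone, reached 0 in some libraries and lay near the 3-tag floor, which was worth 2.51 to 3.56 normalized tags. No fold is given for these last genes.

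**Figure D1:**
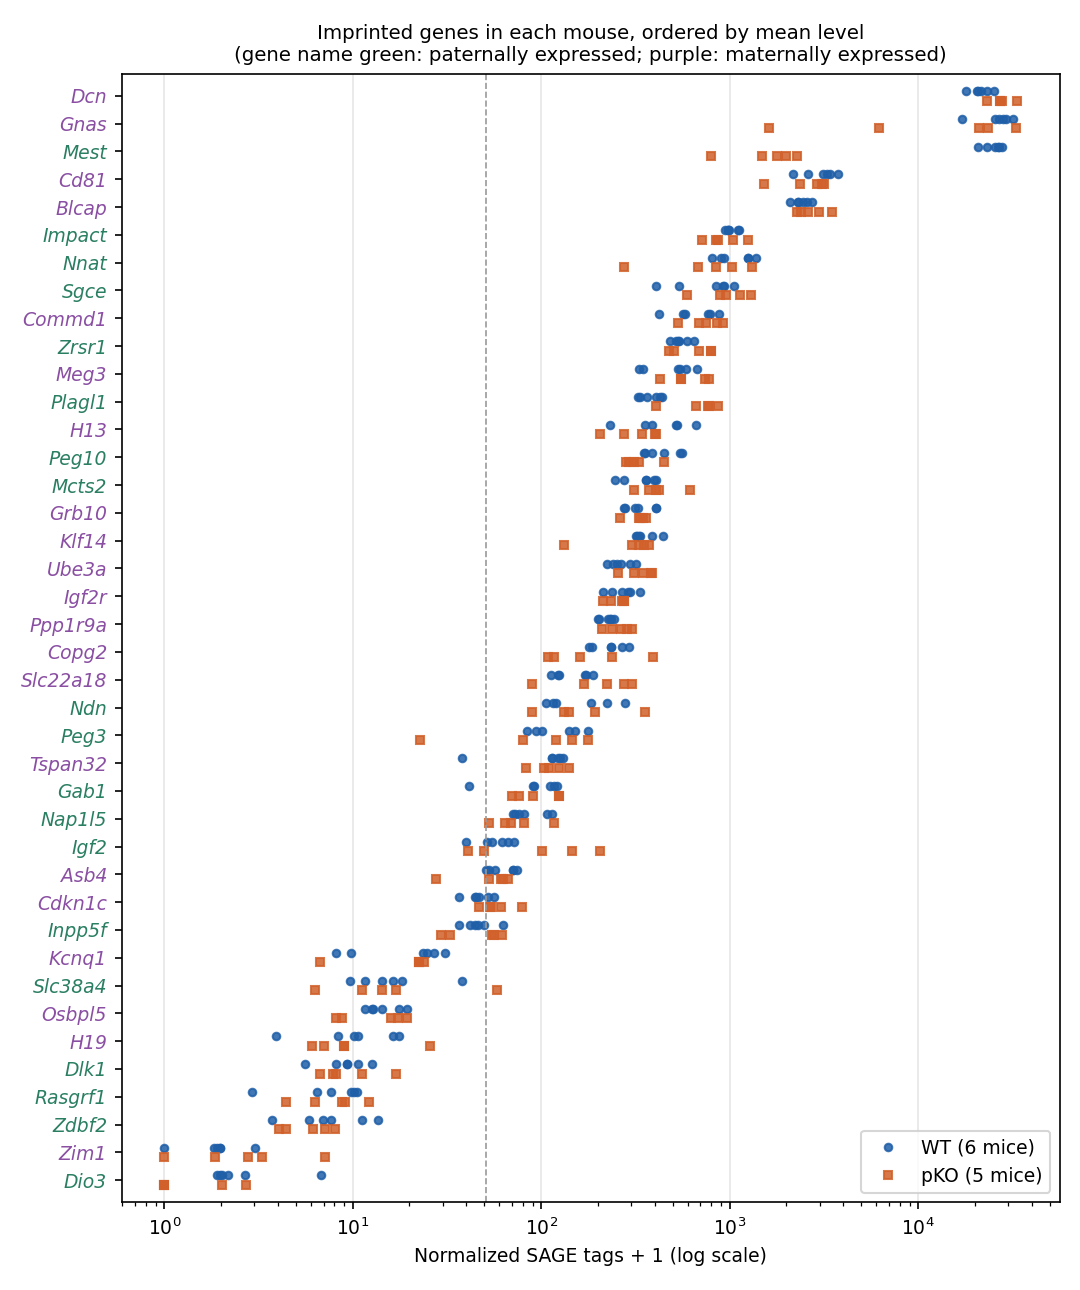
Normalized SAGE tags plus 1 on a log axis for the 40 imprinted genes, ordered by their mean over all mice, with circles for the 6 WT and squares for the 5 pKO mice and a dashed line at a mean of 50. Dcn, Gnas and Mest lead in WT mice, Mest is the only gene with a mean of at least 50 whose genotypes are apart, and 10 genes have means under 50.

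The 40 genes together made up 0.721% ± 0.052 of all tags in WT against 0.493% ± 0.103 in pKO mice. Mest alone took 0.207% ± 0.029 in WT and 0.0134% ± 0.0048 in pKO mice. Without Mest the share was 0.514% ± 0.047 in WT and 0.480% ± 0.105 in pKO mice, with overlapping ranges of 0.425% to 0.548% and 0.340% to 0.591%. Mest ranked 44 among all genes by its WT mean and 1223 by its pKO mean. It accounted for most of the tags of paternally expressed genes in WT mice, whose summed share was 0.250% ± 0.029, against 0.0577% ± 0.0102 in pKO mice. The maternally expressed genes summed to 0.471% ± 0.045 and 0.435% ± 0.106. Gnas and Dcn led this sum, with WT means of 26543 and 21572 normalized tags. The maternal bias of both is known only for some tissues.

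Which imprinted genes moved when the paternal Mest copy was lost? Of the 30 with a mean of at least 50, Mest alone was called at an adjusted p of at most 0.1, as lower in pKO mice, and 0 were called as higher. Over all genes of that abundance, limma called 0.0404% as lower and 0.0101% as higher. At an unadjusted p of at most 0.05 the lower genes were Mest and Peg10 (2 of 30, beside 5.77% of all genes) and the higher ones Plagl1, Dcn and Ube3a (3 of 30, beside 4.85%). The balance over all genes moved with the scaling and the tool, from 572 lower and 480 higher to 726 and 330 with the same library total, 480 and 515 in edgeR and 521 and 607 in DESeq2. Among 30 genes these shares rest on very few genes and are given as a description, and none of the 4 genes other than Mest passed the adjusted threshold. Only Mest had genotype ranges that did not overlap, beside 0.717% of all genes in each direction. By parental allele, the median log2 difference (WT minus pKO, so that a positive value is lower in pKO mice) was -0.04 for the 12 paternally expressed genes other than Mest and -0.14 for the 17 maternally expressed genes, beside -0.01 for all 9906 genes. Both medians rested on single mice: the maternal one was 0.07 without WT replicate 4, and the paternal one was 0.01 without WT replicate 1 and -0.16 without WT replicate 3. The maternal set held genes whose maternal bias is known only for some tissues, Gnas and Dcn among them. Among the 29 genes other than Mest, 13 differences were above 0 and 16 below. The median size of the difference, whatever its sign, was 0.31 for the 30 genes beside 0.17 for all genes.

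**Figure D2:**
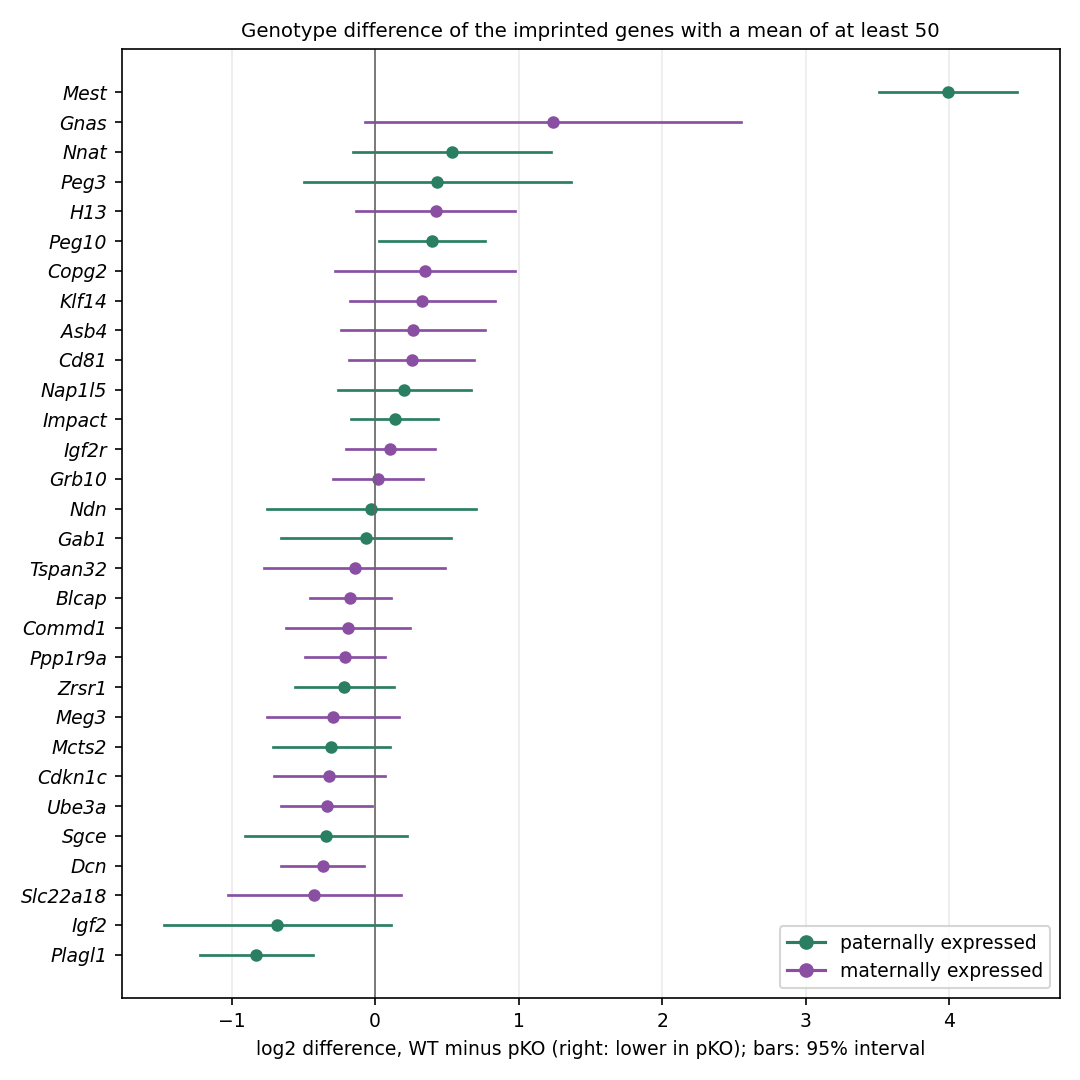
The log2 difference between genotypes (WT minus pKO, on the log2 scale of normalized tags plus 1) for the 30 imprinted genes with a mean of at least 50, with points at the limma estimate, bars for its 95% interval and colour for the expressed parental allele. Mest stands at 3.99, the others lie between -0.83 for Plagl1 and 1.24 for Gnas, and both alleles are found on both sides of 0.

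Mest, the targeted gene, had 20756 normalized tags in the lowest WT mouse, a median of 26018 and 27897 in the highest. The pKO mice had 1479, 793, 1978, 2275 and 1792. Every pKO mouse was far below every WT mouse. The log2 difference was 3.99 (95% interval 3.51 to 4.47, limma adjusted p = 1.2e-06), the pKO mean was 6.63% of the WT mean, and the exact permutation test gave p = 0.0022, the smallest that 6 mice against 5 allow. Mest was lower past the threshold in all 23 alternative fits. The coefficient of variation (CV, the SD as a percent of the mean) of Mest was 10.6% among WT and 34.0% among pKO mice.

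The partners of Mest on chromosome 6 did not pass the threshold. Copg2, a coatomer subunit gene that ends inside the last exon of Mest on the other strand, is maternally biased in some tissues. Its lowest, median and highest WT values were 179, 234 and 291, and the pKO mice had 389, 108, 160, 236 and 116. Replicate 1 of the pKO mice was above all WT mice and 3 were below all of them, so that the log2 difference of 0.35 had a 95% interval of -0.28 to 0.97 (limma adjusted p = 0.74). It was 0.63 without pKO replicate 1 (limma unadjusted p = 0.016), 0.17 without replicate 2 and 0.19 without replicate 5. The ratio of Mest to Copg2 was 112 ± 25.8 in WT against 9.74 ± 4.50 in pKO mice, a gap that the loss of Mest itself sets, and it is given with no test. Klf14, a maternally expressed transcription factor gene known for its part in fat, had 317 to 440 in WT mice (median 332) and 303, 132, 329, 350 and 374 in pKO mice. Only pKO replicate 2 was far below the rest (log2 difference 0.33, 95% interval -0.18 to 0.83), and without it the difference was 0.06.

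Further out, 14 genes beside Mest with an end within 1 Mb were analysed, 12 of them with a mean of at least 50. Their log2 differences ran from -0.31 to 0.55 and the lowest adjusted p was 0.43. At an unadjusted p of at most 0.05, Nrf1 (log2 difference 0.30) and Ube2h (0.31) were lower and Ahcyl2 (-0.31) was higher in pKO mice, that is 2 and 1 of 12, beside 5.77% and 4.85% of all genes. Mest was thus the only one of these genes that was called at the adjusted threshold.

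**Figure D3:**
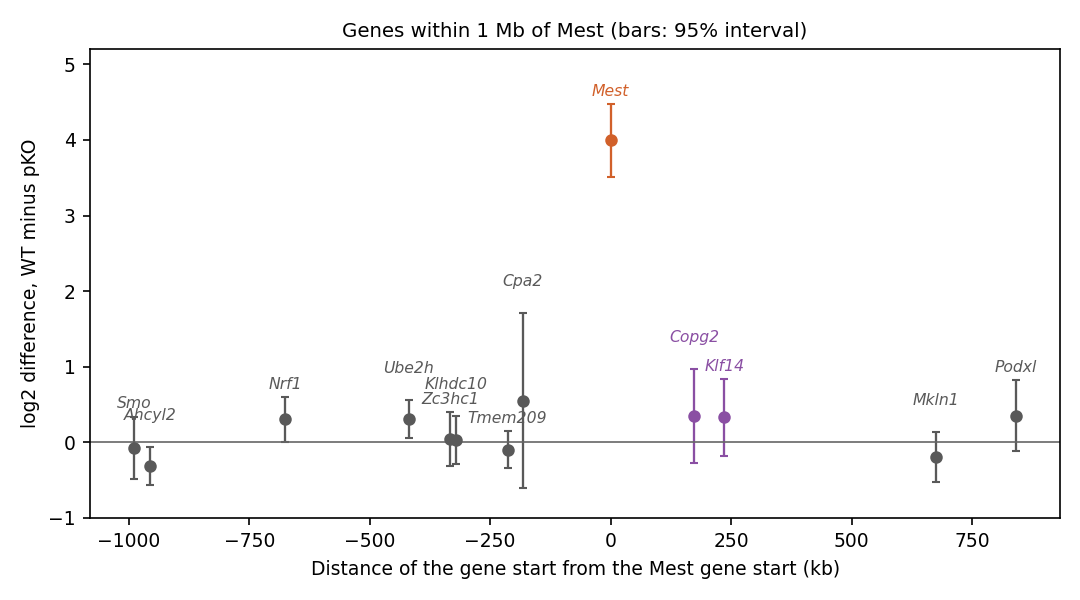
The log2 difference between genotypes (WT minus pKO) of the genes within 1 Mb of Mest whose mean reached 50, against the distance of each gene start from the start of Mest in kilobases, with bars for the 95% interval. Mest lies at 3.99 and its 12 neighbours, with the imprinted Copg2 and Klf14 in purple, lie between -0.31 and 0.55.

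After Mest, Plagl1 had the largest difference among the imprinted genes that reached the unadjusted threshold. The gene, on chromosome 10 from 13060504 to 13131694, is paternally expressed and encodes the zinc finger transcription factor Zac1, a regulator of other imprinted genes. WT mice had 324 at the lowest, a median of 385 and 435 at the highest, and the pKO mice had 865, 405, 764, 665 and 778. In 4 of the 5 pKO mice Plagl1 was above every WT mouse, and pKO replicate 2 lay within the WT range. The log2 difference was -0.83 (95% interval -1.22 to -0.44), with an unadjusted limma p of 0.0005, an exact permutation p of 0.0087 and an adjusted limma p of 0.24. It passed the adjusted threshold without pKO replicate 2 (log2 difference -1.01, limma adjusted p = 0.011) and in DESeq2 (-0.87, adjusted p = 0.0040), and in none of the other 21 alternative fits. The study itself named Plagl1 from these mice, so this is no independent evidence of its direction. Among the study's qRT-PCR checks the gene is listed as not detected.

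Dcn, on chromosome 10 from 97479609 to 97518143, has maternal expression known from the placenta. The WT values were 17960, 21234 and 25297 at the lowest, median and highest, and the pKO values were 27126, 23302, 27961, 27319 and 33497. All but pKO replicate 2 were above every WT mouse. The log2 difference was -0.37 (95% interval -0.65 to -0.08, limma unadjusted p = 0.016, adjusted p = 0.43), with an exact permutation p of 0.0087. The unadjusted call was lost in 1 of the 23 alternative fits, with the replicate number as a block. Progenitor and fibroblast markers, which mark cells known to make decorin, summed to 37659 to 43224 in WT and 33939 to 51056 in pKO mice, with 0 of 10 lower and 1 higher at an unadjusted p of at most 0.05. The shares over all genes were 5.77% lower and 4.85% higher.

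Ube3a encodes an E3 ubiquitin ligase with maternal expression in neurons, and Ndn encodes the growth suppressor necdin from the same Prader-Willi/Angelman domain on chromosome 7. Ube3a had 223, 257 and 317 as the lowest, median and highest WT values and 348, 253, 382, 388 and 308 in pKO mice. The genotypes overlapped, with a log2 difference of -0.34 (95% interval -0.65 to -0.02, limma unadjusted p = 0.039, adjusted p = 0.50). The unadjusted call was lost in 7 of the 11 fits without 1 mouse (WT replicates 1, 3, 5 and 6 and pKO replicates 1, 3 and 4), with the replicate number as a block and with values scaled to the same library total. Ndn was at 170 ± 69.4 in WT against 181 ± 103 in pKO mice, a log2 difference of -0.03 with an interval of -0.76 to 0.70.

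The Peg10 domain on chromosome 6 holds 4 of the genes. Peg10, a paternally expressed gene derived from a retrotransposon, had 350, 416 and 557 at the lowest, median and highest in WT mice and 449, 331, 281, 290 and 310 in pKO mice. Apart from replicate 1, the pKO mice lay below all WT mice, and the log2 difference was 0.40 (95% interval 0.03 to 0.76, limma unadjusted p = 0.036, adjusted p = 0.49). The unadjusted call was lost in 7 of the 11 fits without 1 mouse, those without WT replicate 1, 3 or 4 or pKO replicate 2, 3, 4 or 5. Sgce, which encodes epsilon-sarcoglycan and is transcribed away from Peg10, had WT values of 403 to 1057 (median 882) and pKO values of 590, 889, 1131, 1292 and 956. Its difference had the opposite sign (-0.34, interval -0.90 to 0.22; -0.17 without WT replicate 4 and -0.23 without pKO replicate 4), and the ratio of Peg10 to Sgce overlapped between genotypes (0.625 ± 0.268 in WT against 0.386 ± 0.218 in pKO mice, exact permutation test, p = 0.091). Of the maternally expressed genes of the domain, Ppp1r9a (the actin-binding protein neurabin) had 222 ± 17.4 and 259 ± 37.5, and Asb4 (an adaptor of a ubiquitin ligase) had 61.8 ± 10.3 and 53.1 ± 15.6. With all mice neither reached the unadjusted threshold.

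**Figure D4:**
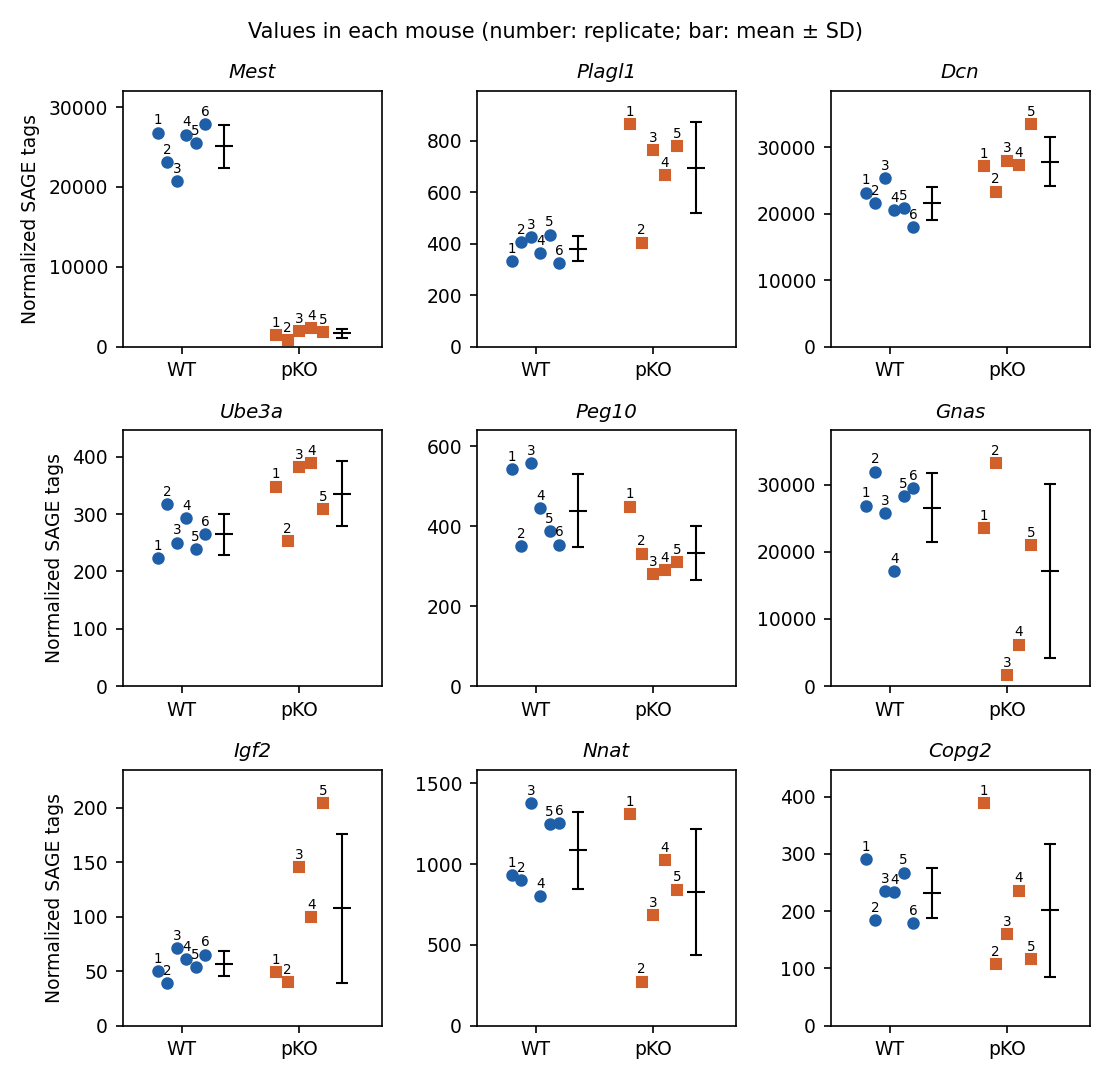
Normalized SAGE tags of 9 imprinted genes in each of the 6 WT (circles) and 5 pKO mice (squares), with the replicate number beside each point and the mean ± SD at the right of each group, on linear axes that start at 0. Mest is apart between genotypes, Plagl1 and Dcn are higher in all pKO mice except replicate 2, Gnas is low in pKO replicates 3 and 4, and Igf2 is high in pKO replicates 3, 4 and 5.

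Gnas, on chromosome 2 from 174284320 to 174346744, had the largest CV among pKO mice of the 30 genes. In WT mice the lowest, median and highest values were 17087, 27574 and 31905. The pKO mice had 23525, 33146, 1622, 6166 and 21003, so that replicates 3 and 4 were far below every WT mouse while replicate 2 was above all of them. The CV was 19.2% among WT and 75.9% among pKO mice. The log2 difference of 1.24 had a 95% interval of -0.07 to 2.55 (limma unadjusted p = 0.062, adjusted p = 0.54), and it was 0.55 without pKO replicate 3, 0.64 in edgeR and 0.63 in DESeq2. It reached the unadjusted threshold without pKO replicate 2 (1.64, limma unadjusted p = 0.017), without replicate 1 (1.51) or 5 (1.47) and with the replicate number as a block (1.20). The adipocyte marker sums of pKO replicates 3 and 4, at 997072 and 762779, were within the WT range. Fabp4 alone made up most of that sum (a WT mean of 655817 of 887863). Whether cell content had a part in the low Gnas values was not tested.

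Igf2, the paternally expressed insulin-like growth factor 2, had 38.9, 57.6 and 71.1 at the lowest, median and highest in WT mice. The pKO mice had 48.9, 40.1, 146, 99.7 and 205, with replicates 3, 4 and 5 above every WT mouse and the others within the WT range. The log2 difference of -0.68 had a 95% interval of -1.47 to 0.11 (limma adjusted p = 0.58). It reached the unadjusted threshold in edgeR (-0.92), in DESeq2 (-0.92), with the replicate number as a block (-0.73) and without pKO replicate 1 (-0.90) or 2 (-0.97), and it was -0.39 without pKO replicate 5. Its neighbour H19 was at 10.2 ± 5.11 in WT against 10.3 ± 8.06 in pKO mice. Igf2r, the maternally expressed receptor that clears IGF2, was at 272 ± 44.0 and 252 ± 28.4, and Grb10, a maternally expressed adaptor that restrains insulin signalling, at 333 ± 58.4 and 326 ± 37.9. Their log2 differences were 0.11 (95% interval -0.21 to 0.42) and 0.02 (-0.30 to 0.34).

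Several paternally expressed genes lie within a host gene, and their levels can be set against that host. Nnat, which encodes the proteolipid neuronatin and lies in an intron of Blcap, had 801, 1089 and 1378 at the lowest, median and highest in WT mice. In pKO mice it had 1310, 273, 682, 1026 and 842, replicate 2 being far below the others (log2 difference 0.54, 95% interval -0.15 to 1.23). The difference was 0.18 without that mouse and 0.75 without pKO replicate 1 (limma unadjusted p = 0.033). Blcap had 2094, 2375 and 2737 in WT mice and 3472, 2995, 2376, 2273 and 2587 in pKO mice (log2 difference -0.17, interval -0.46 to 0.11; -0.08 without pKO replicate 1). The ratio of Nnat to Blcap was 0.453 ± 0.105 in WT against 0.306 ± 0.135 in pKO mice (p = 0.058 in the exact permutation test, 0.12 when adjusted over the 4 host or neighbour ratios other than that of Mest).

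The retrogene Mcts2 lies within H13, the gene of the signal peptide peptidase. Mcts2 was at 340 ± 65.1 in WT against 424 ± 116 in pKO mice, H13 at 446 ± 152 and 325 ± 86.5. Their ratio was 0.850 ± 0.380 and 1.36 ± 0.422, with overlapping ranges (exact permutation test, p = 0.054, adjusted over the same 4 ratios 0.12). The log2 difference of H13 was 0.42, and it was 0.59 without WT replicate 4 (limma unadjusted p = 0.020) and 0.27 without pKO replicate 3. Zrsr1, an RNA-binding protein gene in an intron of Commd1, had 482, 532 and 648 at the lowest, median and highest in WT mice and 503, 476, 796, 797 and 687 in pKO mice, of which 3 were above all WT mice (log2 difference -0.22, interval -0.56 to 0.13). Commd1, known for copper metabolism, had 418, 674 and 882 in WT mice and 534, 686, 853, 923 and 752 in pKO mice. The ratio of this pair was alike in mean, at 0.870 ± 0.226 and 0.869 ± 0.103. The ranges of all 4 of these ratios overlapped between genotypes.

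Those of the 40 genes that lie in the Kcnq1 domain on chromosome 7 are known as maternally expressed. For Cd81, Tspan32, Kcnq1 and Osbpl5 this is known only for some tissues. Cd81 was the most abundant of the 6. This tetraspanin gene had 2158, 3202 and 3774 at the lowest, median and highest in WT mice and 1511, 3177, 2351, 3105 and 2892 in pKO mice, where only replicate 1 was below the WT range (log2 difference 0.25, 95% interval -0.18 to 0.69; 0.07 without that mouse). Slc22a18, a transporter-like gene, was at 147 ± 31.9 in WT against 211 ± 85.5 in pKO mice, and Cdkn1c, the cell cycle inhibitor p57, at 45.8 ± 6.71 and 57.8 ± 12.4. Tspan32, another tetraspanin gene, was at 107 ± 34.8 and 111 ± 22.0. Below 50, the potassium channel gene Kcnq1 was at 19.7 ± 9.46 and 18.6 ± 7.22, and Osbpl5, of the oxysterol-binding protein family, at 13.8 ± 3.09 and 12.9 ± 5.13. None of the 6 reached an unadjusted p of 0.05 with all mice. Slc22a18 did so without pKO replicate 2, where its log2 difference of -0.42 became -0.71 (limma unadjusted p = 0.0050).

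The Dlk1-Dio3 domain on chromosome 12 was represented mainly by its maternal non-coding RNA. Meg3 was at 501 ± 135 in WT against 607 ± 145 in pKO mice, a log2 difference of -0.29 with a 95% interval of -0.75 to 0.17. The paternally expressed Dlk1 ranged from 4.57 to 11.7 in WT and from 5.73 to 15.9 in pKO mice, and Dio3 from 0.914 to 5.79 and from 0 to 1.72.

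The remaining genes did not reach the unadjusted threshold. Impact, a translational regulator, had 946, 987 and 1120 at the lowest, median and highest in WT mice and 1037, 1257, 716, 864 and 843 in pKO mice, which scattered on both sides of the narrow WT range (log2 difference 0.14, 95% interval -0.17 to 0.44). Peg3, a zinc finger gene of the same network as Mest, was at 124 ± 36.6 in WT against 108 ± 59.8 in pKO mice, where replicate 2 had 21.8 and the others 79.0 to 176 (log2 difference 0.43, and -0.06 without that mouse). Gab1, a docking protein of receptor tyrosine kinases, was at 94.3 ± 29.5 and 95.8 ± 25.9, and Nap1l5, of the nucleosome assembly protein family, at 85.8 ± 18.7 and 75.9 ± 24.4. Inpp5f, an inositol phosphatase gene of which an alternative transcript is imprinted, had means of 46.0 in both genotypes. The amino acid transporter gene Slc38a4 was at 17.1 ± 10.2 and 20.5 ± 21.1, the Ras exchange factor gene Rasgrf1 at 6.92 ± 2.91 and 7.17 ± 2.97, and Zdbf2 at 7.17 ± 3.63 and 4.97 ± 1.72. Zim1, the maternally expressed neighbour of Peg3, ranged from 0 to 2.05 in WT and from 0 to 6.11 in pKO mice.

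Variation between mice of one genotype was of interest because Mest is known to differ among genetically identical mice. According to the study the mice read here were selected from a larger cohort. The spread among them, that of Mest included, therefore need not be the spread in that cohort. In WT mice the CV of the imprinted genes had a median of 19.2%, beside 15.5% for all genes of that abundance, and 20 of 30 lay above that value. The lowest were Impact (7.13%), Ppp1r9a (7.85%) and Blcap (9.31%), and the highest Ndn (40.9%), H13 (34.2%), Tspan32 (32.6%) and Sgce (32.5%). The value of Tspan32 rested on WT replicate 4, without which its CV was 6.29%, among the lowest, and the median of the 30 genes was 17.2%. The median for all genes without that mouse is not given, so 17.2% cannot be set against 15.5%. In pKO mice the median was 26.6%, beside 23.2% for all genes. The CV was larger in pKO than in WT mice for 21 of the 30 imprinted genes and for 73.5% of all genes.

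**Figure D5:**
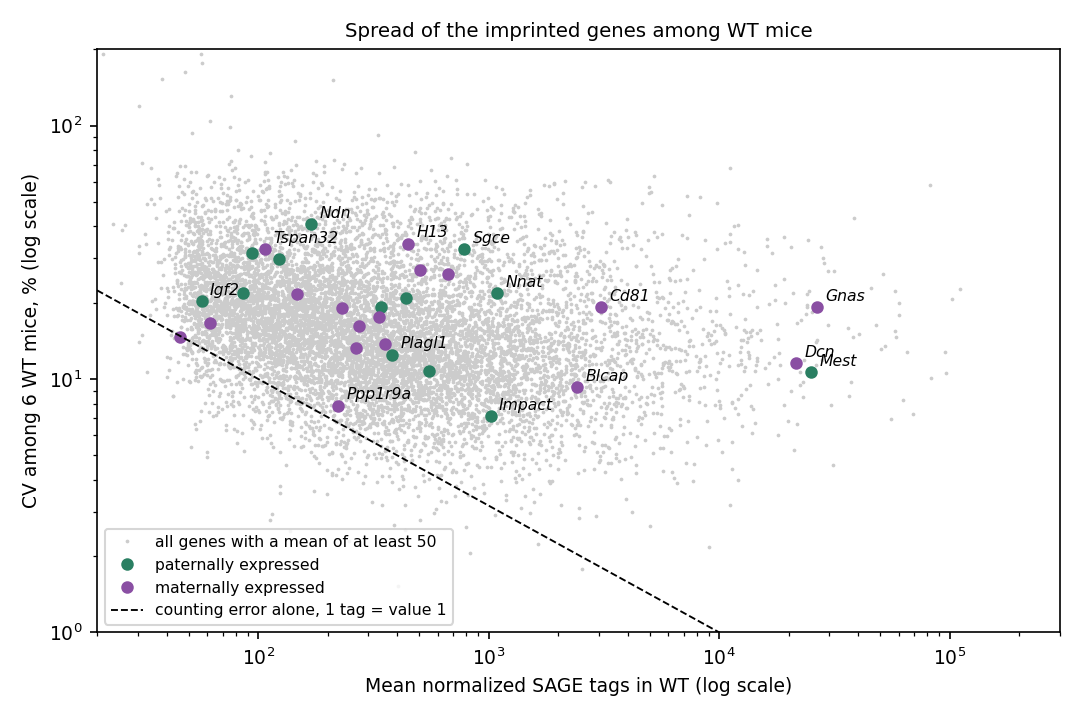
The CV among the 6 WT mice in percent against the WT mean of normalized tags, both on log axes, with grey points for every gene whose mean was 50 or more, coloured points for the 30 imprinted genes by expressed allele and a dashed line for counting error alone. Mest (10.6%) and Dcn (11.5%) lie low, Ndn (40.9%) is the highest of the imprinted genes, and the imprinted genes have a median of 19.2%.

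A further 42 genes listed as imprinted, outside the 47, were read for comparison, 28 of them with a mean of at least 50. Their expressed alleles and the tissues of their imprinting are not given here. None was called at the adjusted threshold. At an unadjusted p of at most 0.05, 4 of 28 were lower in pKO mice (Tfpi2, Tnfrsf23, Tssc4 and Axl) and 3 were higher (Cobl, Ano1 and Tbc1d12), beside 5.77% and 4.85% of all genes. Cobl, with means of 32.2 in WT and 50.1 in pKO mice, entered this count only through the genotype in which it was higher. Tfpi2, an inhibitor of serine proteases from the Peg10 domain, ranged from 368 to 553 in WT and from 151 to 324 in pKO mice. It was the only one of the 28 with no overlap, beside 0.717% of all genes (log2 difference 0.75, exact permutation test p = 0.0022, limma adjusted p = 0.30). Axl, a receptor tyrosine kinase gene, ranged from 546 to 920 in WT and from 297 to 746 in pKO mice (log2 difference 0.64, limma adjusted p = 0.39). The most abundant were Ctsd, with means of 69264 in WT and 57258 in pKO mice, Pon2, Chrac1, Phf17 and Casd1.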

How the data were processed

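The samples were grouped by genotype as labelled, and mice of a group were taken as separate animals. Per the study's methods, the authors sequenced 3′ tags on a SOLiD system, mapped them with a modified SOLiD SAGE Analysis Software v1.10 and normalized raw counts; the submitters' processing notes name mm10 and edgeR 3.2.3. How genes were filtered to 15453, and the annotation used, are not given in the sources used here. The deposited values are a signal per gene, tag counts divided by 1 size factor per library: 100% of the values were whole multiples of the library's step (tolerance 0.01 tag), so whole tags were recovered.

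Values were tested as log2(value + 1) with limma 3.58.1 (lmFit, eBayes with trend, genotype as the only term, Benjamini-Hochberg over 15453 genes), since the values are not raw counts. A gene was called at an adjusted p of at most 0.1 if its mean reached 50 in either genotype, and an unadjusted p of at most 0.05 with the same minimum was used as a description. Log2 differences understate changes of low genes. Two-sided exact permutation tests ran over 462 splits. On the recovered tags edgeR 4.0.16 (quasi-likelihood) called 4 genes as lower and 1 as higher in pKO mice, and DESeq2 1.42.0 was a further alternative. The fits were tested on simulated data. Intervals cover 95%, and depth limits the genes under 50. No batch is given in the labels.

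The members and gene lists were chosen with earlier results of these data known. Every analysed member is named. Full values are given for Mest, members with an unadjusted p of at most 0.05, the 10 most abundant members, their overlapping antisense, host or intronic partners, and Klf14 and Igf2, which were added after their values were seen; the others have means or ranges. Other imprinted genes are named at an unadjusted p of at most 0.05 or among the 5 most abundant. Parental alleles and roles are textbook knowledge. Marker lists covered adipocytes, progenitors and fibroblasts, macrophages, lymphocytes, endothelium, mesothelium, epididymis and testis, skeletal muscle and brown fat.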

Additional observations from a re-analysis of the deposited data

Results flagged for a closer look

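Each of the 40 imprinted genes was screened in each genotype for a single mouse far from the others, by Dixon's test at the 95% level. Of the 80 groups tested, 6 had such a mouse, where chance alone would give about 4 (1 in 20). Tspan32 was at 36.9 normalized tags in WT replicate 4, against 113 to 130 in the other WT mice, and the same mouse had the high value of Slc38a4, at 36.9 against 8.68 to 17.4. In pKO replicate 1, Slc38a4 was at 57.5, against 5.30 to 16.0 in the other pKO mice. Kcnq1 was at 5.73 in pKO replicate 2, where the other pKO mice had 21.4 to 22.9. H19 was at 24.6 in pKO replicate 5, against 5.09 to 8.02. Dio3 was at 5.79 in WT replicate 5, against 0.914 to 1.67 in the others, all of them under the 3-tag floor. All but Tspan32 are genes with means under 50, and none of the 6 values bears on a called difference. The low Gnas values of pKO replicates 3 and 4 were not picked out by this test, since they lie near each other.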

How the results depend on the processing

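Mest was called in all 23 alternative fits, and Plagl1 was on the same side of 0 in all of them. Leaving out 1 mouse turned the sign of Ndn, Peg3, Tspan32, Gab1 and Grb10, whose differences were not called. The counts over all genes (4 lower in pKO mice and 1 higher) moved more. Lower genes numbered 8 when only genes with a mean of 50 entered the fit, 9 (with 2 higher) when only genes with 10 in every mouse did, both of which test fewer genes, and 2 at an adjusted p of at most 0.05. DESeq2 called 63 as lower and 58 as higher, including 1 imprinted gene as higher (Plagl1); the cause was not tested. Leaving out 1 mouse gave 2 to 65 lower and 1 to 26 higher genes, with the most without pKO replicate 2, and 1 lower and 0 to 1 higher imprinted genes. At the unadjusted threshold the leave-one-out ranges were 415 to 844 lower and 328 to 639 higher over all genes, and 1 to 5 lower and 2 to 5 higher imprinted genes. The 5 lower ones were found without pKO replicate 1 (Gnas, Mest, Nnat, Peg10 and Copg2) and the 5 higher ones without pKO replicate 2 (Dcn, Plagl1, Ube3a, Slc22a18 and Igf2). Replicate numbers did not pair the mice: correlations of same-numbered mice ran from -0.092 to 0.14, and 0 of 5 pKO mice correlated best with their own number. With the replicate block 1 gene was lower and 0 higher. Mest ran from 3.75 to 4.13 when each mouse was left out.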
